A study of Homo sapiens with 4 samples.

Results

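The major histocompatibility complex (MHC) region on the short arm of chromosome 6 was examined in lists of H3K4me3 peaks from control and ARID1A knockout cells of MDA-MB-231, an established triple-negative breast cancer line. Its members were the peaks of either list that overlapped chromosome 6 from 28477797 to 33448354 in hg19 coordinates. Membership went by position and used no measured value, but the region itself was chosen with earlier results of these data known. The members numbered 345 of the 60265 peaks of both lists, with 170 of 36677 control peaks and 175 of 23588 knockout peaks. The region was described in its customary segments, class I up to position 31400000, class III from there to 32300000 and class II beyond. No peak crossed an end of the region or a limit between classes. H3K4me3 was immunoprecipitated (IP) from 1 culture of each genotype, control and ARID1A knockout, and each list was called against the input library of its own genotype. The control IP held 27748061 tags (aligned sequence reads) and the knockout IP 13391724. The labels give no other treatment, do not say whether the knockout cells were 1 clone, and mark the inputs with IgG as antibody. With 1 library per genotype no difference had a replicate check and no test was made, and the intervals given cover only the error of counting, in which copies of 1 DNA fragment count as separate tags.

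The MHC holds the genes through which cells show peptides to T cells. Class I molecules, made in nearly all nucleated cells, present peptides from inside the cell to cytotoxic T cells, and epithelial tumours often lower them. Class II molecules present peptides from outside the cell to helper T cells and are made mainly by professional antigen-presenting cells, while other cells can make them when interferon gamma induces the transactivator CIITA. The class III segment between them holds densely packed genes of other kinds, among them complement factors, the cytokines TNF, LTA and LTB, stress-induced HSP70 chaperones and many genes that most cells use. H3K4me3 marks promoters that are active or ready for use, and ARID1A is a DNA-binding subunit of a SWI/SNF remodelling complex that moves nucleosomes.

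An annotation of the coordinates used by the peak lists was not at hand, so no peak was assigned to a gene. What the segments hold was taken from the order of genes in RefSeq's GRCh38.p14 annotation, with landmark genes chosen from general knowledge of the region, so the edges of the segments may differ by a few genes. From GPX6 to MICA, class I, there were 72 protein-coding genes, including 14 olfactory receptor genes between OR2W1 and OR2H2 and class I heavy chain genes such as HLA-F, HLA-G, HLA-E, HLA-C and HLA-B. From MICB to NOTCH4, class III, there were 60, and from TSBP1 to ZBTB9, class II, there were 40. In class II the order starts with TSBP1, BTNL2, HLA-DRA and the other DR and DQ chain genes. HLA-DOB follows, then the genes that supply class I molecules with peptides, TAP2, PSMB8, TAP1 and PSMB9. Next come HLA-DMB, HLA-DMA, the chromatin reader gene BRD2, HLA-DOA and the DP chain genes, and last a run of widely used genes such as RXRB, RING1, RPS18 and TAPBP.

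The promoters of these gene families differ in the density of CpG dinucleotides, a base composition that often goes with H3K4me3. In the 250 bases upstream of the start in the RefSeq promoter table (GRCh38.p14), the median was 7.5 CpG in class I (64 of 72 genes matched), 10.5 in class III (54 of 60) and 10 in class II (36 of 40). It was 17.0 for the 15843 protein-coding genes with an entry. Within class II the families stood apart. At most 5 CpG were found in 5 of the 6 matched class II chain genes and in all 4 class II peptide-loading genes (HLA-DMA, HLA-DMB, HLA-DOA and HLA-DOB). The share was 46.9% of the matched class I genes, 40.3% of those of the whole region and 23.0% of all entries. HLA-DPA1, with 24, was the exception among the chains. The list of chains did not hold HLA-DQA2 and HLA-DQB2, which have 1 and 2 CpG and a CCAAT box each. The class I heavy chains also varied, with 17 in HLA-B, 15 in HLA-C, 13 in HLA-F and 1 in HLA-G, and HLA-G alone of these 4 had no CCAAT box. The 5 peptide-supply genes (TAP1, TAP2, PSMB8, PSMB9 and TAPBP) held between 10 and 21. A CCAAT box, the letters CCAAT on either strand, was found in 5 of the 6 chain genes and all 4 loading genes. It was found in 44.8% of the matched MHC genes and in 34.5% of all entries. Other families ranged from all 3 heat shock genes and 3 of the 4 matched heavy chains to 0 of the 3 cytokine genes. Among the genes without an entry were HLA-E, HLA-DRA, C4A, C4B and DAXX. The sequences of 4 genes are given to show the range of CpG density, each 250 bases 5′ to 3′ on the strand of its gene, with every CpG in capitals. HLA-B, a class I heavy chain on the minus strand, has 17 CpG. HLA-DRB1, a class II beta chain on the minus strand, has 1. PSMB9, an immunoproteasome subunit on the plus strand, has 21, and BRD2 on the plus strand has 27.
HLA-B: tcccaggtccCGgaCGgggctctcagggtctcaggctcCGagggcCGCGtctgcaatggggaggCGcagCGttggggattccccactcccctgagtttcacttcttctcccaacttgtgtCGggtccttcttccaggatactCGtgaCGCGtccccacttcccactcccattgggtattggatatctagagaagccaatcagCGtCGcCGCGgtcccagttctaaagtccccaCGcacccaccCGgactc
HLA-DRB1: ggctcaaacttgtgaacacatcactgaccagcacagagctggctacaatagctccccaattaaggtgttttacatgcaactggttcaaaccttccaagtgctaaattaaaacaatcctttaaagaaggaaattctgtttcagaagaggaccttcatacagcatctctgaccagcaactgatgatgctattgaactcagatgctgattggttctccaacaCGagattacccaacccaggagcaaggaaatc
PSMB9: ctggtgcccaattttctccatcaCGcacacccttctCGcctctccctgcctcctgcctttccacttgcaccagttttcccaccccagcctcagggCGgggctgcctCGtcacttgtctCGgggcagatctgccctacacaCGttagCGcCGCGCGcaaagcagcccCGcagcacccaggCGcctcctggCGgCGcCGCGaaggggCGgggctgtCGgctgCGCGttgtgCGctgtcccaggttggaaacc
BRD2: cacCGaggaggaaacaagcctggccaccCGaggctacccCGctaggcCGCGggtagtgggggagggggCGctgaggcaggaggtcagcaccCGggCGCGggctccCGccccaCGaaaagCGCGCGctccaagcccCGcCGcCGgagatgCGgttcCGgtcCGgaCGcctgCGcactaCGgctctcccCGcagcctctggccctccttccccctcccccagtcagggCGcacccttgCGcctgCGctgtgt
The match of a letter pattern is a description of these windows. Whether a given promoter lay in a peak was not analysed here.

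Across the region, the control list held broad H3K4me3 domains and the knockout list a like number of short, tag-rich peaks. The 170 control peaks were a median of 3417.5 bp wide (quartiles 1964.25 and 5703.75 bp) and together covered 743 kb of its 4.97 Mb. The 175 knockout peaks were a median of 301 bp wide (quartiles 300 and 495 bp) and covered 82.7 kb, or 1.66%. Over the whole lists the medians were 2968 and 300 bp. Of the MHC control peaks 77 spanned 4 kb or more, a share of 45.3% (95% interval by Clopper-Pearson 37.7 to 53.1%), against 35.1% of the whole control list, and no knockout peak of the region reached that width. In the knockout 85 of 175 peaks (48.6%, 41.0 to 56.2%) measured 300 bp, the d value that peak calling used, and in the whole list 12977 of 23588 did (interval 54.4 to 55.7%). A difference in width between the genotypes and one between the libraries or their peak calling cannot be told apart here.

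The region held a larger part of the knockout list than of the control list. It had 0.742% of all knockout peaks (0.636 to 0.860%) and 0.464% of all control peaks (0.397 to 0.538%). The rest of chromosome 6 had 1150 knockout and 2004 control peaks, a ratio of 0.574, where the MHC region had a ratio of 1.03. In tags the libraries were nearly level, with 98513 knockout and 101673 control tags in MHC peaks. That is a ratio of 0.969, beside 0.882 on the rest of the chromosome and 0.772 over the whole lists. As a share of all IP tags of its library, the region held 0.736% in the knockout and 0.366% in the control. A change in the number of cells with the mark and a change in the mark per cell cannot be told apart in these libraries. The share of each library that lay in any peak also differed, at 99.4% of knockout and 62.1% of control IP tags, and its part in these ratios was not tested.

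**Figure D1:**
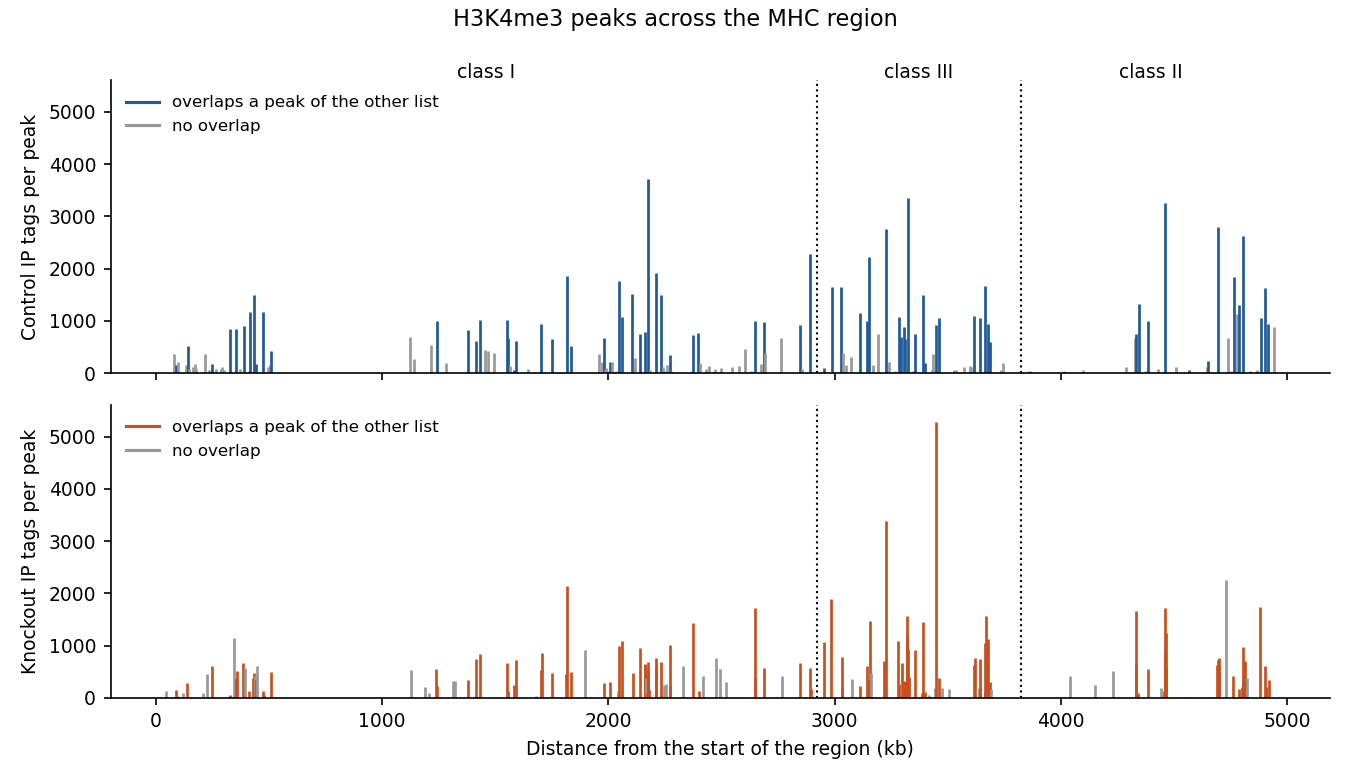
Tags of every MHC peak against its distance from the start of the region in kb, control above and knockout below, with dotted lines at the limits between class I, class III and class II. Coloured lines are peaks that overlap a peak of the other list and grey lines those that do not; a stretch of 613 kb in class I is empty in both lists, and the start of class II holds 5 weak control peaks and 3 knockout peaks of 254 to 506 tags.

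Along the region the lists rose and fell together. In 20 windows of 250 kb, the tags of the 2 lists had a Spearman's rho of 0.93 and a Pearson's r of 0.86, given as a description because neighbouring windows share their libraries. The fullest window in knockout tags began 3250 kb from the start of the region, in class III, with 15857 knockout and 11577 control tags. The window that began at 2000 kb, in class I, had the most control tags, 13985, and 10066 knockout tags. The window at 750 kb was empty in both lists, and the windows at 3750 kb, across the limit between class III and class II, and at 4000 kb, in class II, had 74 and 88 control tags with 0 and 1181 knockout tags.

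Of the 170 MHC control peaks, 76 contained or touched a knockout peak (44.7%, 37.1 to 52.5%), where 28.4% of all control peaks did and 500 of 2004 (23.1 to 26.9%) on the rest of chromosome 6. In the other direction 133 of 175 MHC knockout peaks touched a control domain by 1 bp or more (76.0%, 69.0 to 82.1%), against 60.3% of the whole knockout list and 55.6% (52.6 to 58.5%) on the rest of the chromosome. Control peaks were also stronger here, with a median of 294.5 tags in the region, 134 on the rest of chromosome 6 and 168 over the list, so the shares were set out by control tags. Of the weak MHC peaks, under 100 tags, 3 of 47 held a knockout peak (6.38%, 1.34 to 17.5%), and outside the region the share was 4.58%. From 100 to under 500 tags it was 9 of 51 (17.6%, 8.40 to 30.9%) against 16.9% outside. From 500 to under 1000 tags it was 31 of 38 (81.6%, 65.7 to 92.3%) against 56.6% (55.3 to 58.0%). At 1000 tags or more it was 33 of 34 (97.1%, 84.7 to 99.9%) against 79.7% (78.6 to 80.7%). The weak and middle classes of the region lay near the background, and from 500 tags on the interval of the region lay above that of all other peaks. On the rest of chromosome 6 the share was 58.6% (52.4 to 64.7%) from 500 to under 1000 tags and 83.4% (77.9 to 88.0%) above, and the latter interval overlaps that of the region. In class II alone 3 of 6 control peaks from 500 to under 1000 tags held a knockout peak (50.0%, 11.8 to 88.2%), and 8 of 9 at 1000 tags or more (88.9%, 51.8 to 99.7%), and both intervals hold the share outside the region. A single MHC peak with at least 1000 tags had no knockout peak, where 20.2% of such peaks of the whole list had none.

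**Figure D2:**
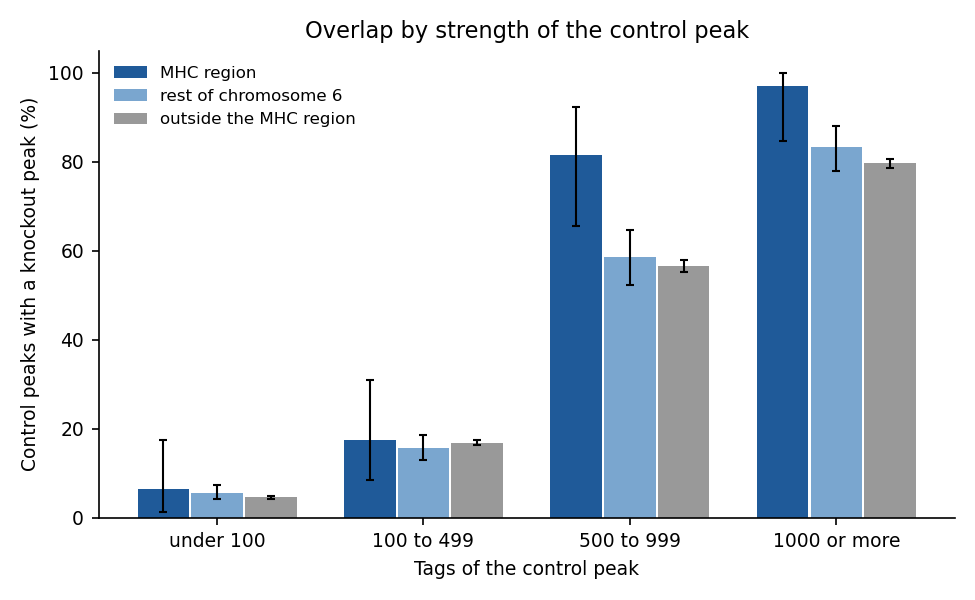
Percentage of control peaks that hold a knockout peak, by the tags of the control peak, for the MHC region, the rest of chromosome 6 and all peaks outside the region (which include the rest of chromosome 6). Error bars are exact 95% intervals from counting; at 1000 tags or more the MHC share is 97.1% and the share outside 79.7%.

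The classes differed in how densely the mark was set. Class III, 0.900 Mb long, was the densest, with 44.4 control peaks per Mb (exact Poisson 95% interval 31.8 to 60.5) and 55.6 knockout peaks per Mb (41.2 to 73.2). Class I had 34.2 (27.8 to 41.6) and 30.1 (24.2 to 37.1) over 2.92 Mb, and class II 26.1 (17.6 to 37.3) and 32.2 (22.7 to 44.4) over 1.15 Mb. Control peaks covered 24.2% of class III, 12.7% of class I and 13.5% of class II. Apart from knockout peaks in class I and class III, whose intervals do not meet, the intervals of the densities overlap. Median control widths were 4787 bp in class III, 4031.5 bp in class II and 2931.5 bp in class I, and knockout medians were 300, 451 and 301 bp. Exactly 300 bp was the width of 30 of 50 knockout peaks in class III (60.0%, 45.2 to 73.6%) and of 12 of 37 in class II (32.4%, 18.0 to 49.8%). Knockout tags stood to control tags as 1.20 in class III, 0.845 in class I and 0.924 in class II.

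**Figure D3:**
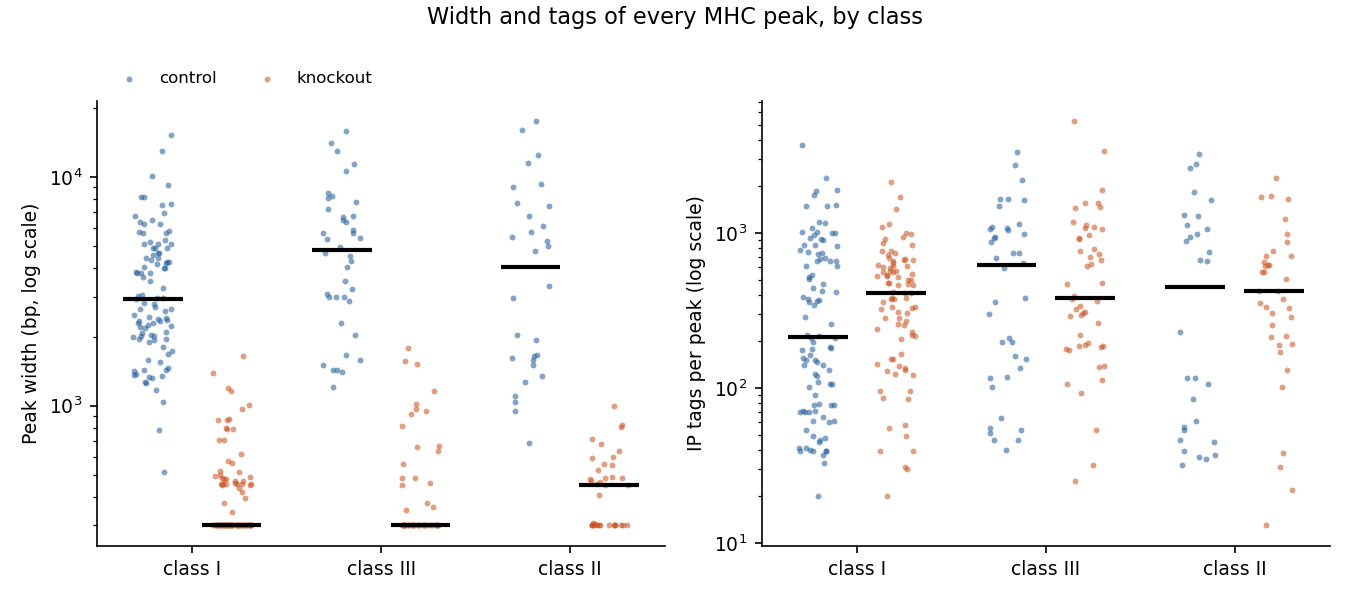
Width in bp (left) and IP tags (right) of every MHC peak on log axes, by class and list, with black bars at the medians. Control widths lie between 513 and 17511 bp and knockout widths between 300 and 1786 bp, while the tags of both lists overlap throughout.

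Class I held 100 control and 88 knockout peaks. The strongest control domain of the whole region lay here, from 30646370 to 30661663, with 3713 tags (exact Poisson interval 3595 to 3834) over 15294 bp, and ranked 138th of 36677 in the control list. In the knockout list 6 separate peaks lay within it, with 1784 tags together. Next came a domain from 31363824 to 31376793, at the end of the segment, with 2274 control tags over 12970 bp and 737 knockout tags in 2 peaks. The third, from 30682514 to 30692576, had 1911 control tags and 1362 knockout tags in 2 peaks. As deposited, the knockout to control ratios of these 3 domains were 0.480, 0.324 and 0.713, each below the 0.772 of the whole lists. Divided by the library totals, which raises the ratio of the whole lists as well, they were 0.996, 0.672 and 1.48. The 3 strongest knockout peaks of class I lay elsewhere, each in another control domain. They had 2150 tags (30294012 to 30295662), 1714 tags (31126415 to 31127288) and 1434 tags (30852960 to 30853822).

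Of the 13 class I control peaks with at least 1000 tags all held a knockout peak, and of the 23 with 500 to under 1000 tags 20 did. Over the whole control list the shares were 79.8% and 56.8%. The strongest class I control peak without a knockout peak ran from 29598605 to 29602597 with 688 tags (638 to 741). The nearest knockout peak lay 3384 bp away. Another from 31238072 to 31241884 had 679 tags (629 to 732), with a knockout peak 1620 bp away. The longest stretch of the region with no control peak was in class I, from 28985468 to 29598604, a length of 613 kb, and it held no knockout peak either. The gene order places the olfactory receptor genes, which are silent outside a few tissues, in the first part of class I, between ZNF311 and GABBR1. Another stretch in class I, from 30315577 to 30432240, had no control peak over 117 kb and 1 knockout peak with 910 tags.

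Class III held 40 control and 50 knockout peaks, and 23 of its control peaks had a knockout peak (57.5%, 40.9 to 73.0%). Over the whole control list 28.4% did, but its median was 168 tags, against 620 in class III. All 12 class III peaks with at least 1000 tags and 8 of the 9 with 500 to under 1000 tags had a knockout peak. Over the whole list the shares were 79.8% and 56.8%. The strongest and widest control domain of the segment, from 31792516 to 31808439, had 3348 tags (3236 to 3463) over 15924 bp, and 6 knockout peaks with 4417 tags. The second, from 31696008 to 31710079, had 2766 control tags and 4077 knockout tags in 2 peaks. The third, from 31623788 to 31636780, had 2213 control tags and 1807 knockout tags, also in 2 peaks. Unlike the leading class I domains, the first and second of these had more knockout than control tags as deposited. The ratios were 1.32, 1.47 and 0.817, beside 0.772 over the whole lists. Divided by the library totals, which raises the ratio of the whole lists as well, they were 2.73, 3.05 and 1.69.

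The peak with the most knockout tags in the region was in class III, from 31925836 to 31927357, with 5280 tags (5139 to 5424) in 1522 bp. It ranked 5th of the 23588 knockout peaks. The control domain around it, from 31923395 to 31930104, had 927 tags over 6710 bp and held no other knockout peak. The next, from 31702881 to 31704451, had 3381 tags, and the third, from 31461316 to 31463101, had 1883 tags in 1786 bp and was the widest knockout peak of the region. A control domain from 31667601 to 31672934 with 743 tags (691 to 798) was the strongest of class III without a knockout peak, and the nearest one lay 23035 bp away. The second was weaker, from 31513644 to 31517681 with 380 tags.

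By control tags, class II fell into a low and a high stretch. Before position 32803052, where the first control peak of at least 500 tags began, 503 kb held 5 control peaks with 32, 35, 39, 56 and 116 tags, which covered 1.13% of that length. None of these 5 held a knockout peak (exact interval 0 to 52.2%, and up to 60.0% by the limit of 3 counts). Over the whole control list 4.59% of peaks under 100 tags held one, and 16.9% of those from 100 to under 500 tags. The control peaks under 100 tags in this stretch had false discovery rates from 2.03 to 20.18%. The knockout list had 3 peaks in this stretch, with 421, 254 and 506 tags. All lay outside control peaks, 27012 bp or more from the nearest one. From position 32803052 on, 645 kb held 25 control peaks with 36 to 3256 tags and a median of 752, which covered 23.1% of the length, and 34 knockout peaks, of which 31 lay in control peaks. That later stretch had 38.7 control peaks per Mb, within the interval of class III. The limit between the stretches was set after the values were seen, and the low stretch is a description.

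The long stretches without control peaks in class II ran from 32578405 to 32764146, over 186 kb with 2 knockout peaks, and from 32339887 to 32489336, over 149 kb with none. In the knockout list the longest empty stretch after the one in class I ran from 32168372 to 32517034, over 349 kb, across the limit between class III and class II, and the control list had 5 peaks of 32 to 199 tags there. In gene order the DR and DQ chain genes, mostly with CpG-poor promoters as above, come early in class II and the peptide-supply genes and BRD2 later. MHC typing, copy number and the placement of reads among near-identical DR and DQ genes were not analysed here.

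The leading control domains of class II all lay in the high stretch. The domain from 32933431 to 32945853 had 3256 control tags (3145 to 3370) over 12423 bp and 6 knockout peaks with 4805 tags. The domain from 33165030 to 33182540 spanned 17511 bp, the widest of the region, with 2795 control tags and 6 knockout peaks with 3117 tags. The domain from 33277156 to 33293218 had 2617 control tags over 16063 bp and 5 knockout peaks with 2535 tags. Knockout tags were above control tags in the first and second of these and slightly below in the third. The ratios were 1.48, 1.12 and 0.969, beside 0.772 over the whole lists. Divided by the library totals, which raises the ratio of the whole lists as well, they were 3.06, 2.31 and 2.01. After the strongest knockout peak of class II, which lay outside control peaks and is given further on, came one from 33359833 to 33360655 with 1748 tags and one from 32937307 to 32937896 with 1719, both in control peaks. Class II also held 4 of the 8 MHC control peaks of at least 500 tags that had no knockout peak. Those were 3 of its 6 peaks from 500 to under 1000 tags and 1 of its 9 at 1000 or more. Over the whole control list 2229 of 5163 and 1196 of 5914 such peaks had none. The strongest of the 4 in class II, from 33253166 to 33262144, had 1127 tags (1062 to 1195) over 8979 bp, with a knockout peak 4258 bp away. The next, from 33418280 to 33425054 near the end of the region, had 888 tags (831 to 948) and lay 21471 bp from a knockout peak.

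Many MHC domains held several knockout peaks. Of the 170 control peaks 31 held 2 or more (18.2%), against 7.80% of the whole control list, with 14 in class I, 12 in class III and 5 in class II. Control peaks of the region were also stronger and wider, with 7.06% at 10 kb or more against 2.94% of the whole control list. The part of width and strength in these counts was not tested. Knockout peaks numbered 6 in each of 4 domains, where 0.0791% of the whole control list, 29 peaks, held 6 or more. In the class III domain from 31792516 to 31808439 the 6 peaks had 312, 1186, 1568, 929, 32 and 390 tags, from left to right. The strongest had an offset of -5490 bp from the control summit, and the nearest lay 18 bp from it. In the class II domain from 32933431 to 32945853 they had 131, 287, 1719, 873, 1232 and 563 tags, and none lay within 500 bp of the control summit. The class I domain from 30646370 to 30661663 had 96, 694, 528, 272, 155 and 39. In the domain from 33165030 to 33182540 the tags were 622, 715, 38, 353, 763 and 626. Peaks of one domain thus differed widely in tags, and the strongest was not always the one nearest the control summit.

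**Figure D4:**
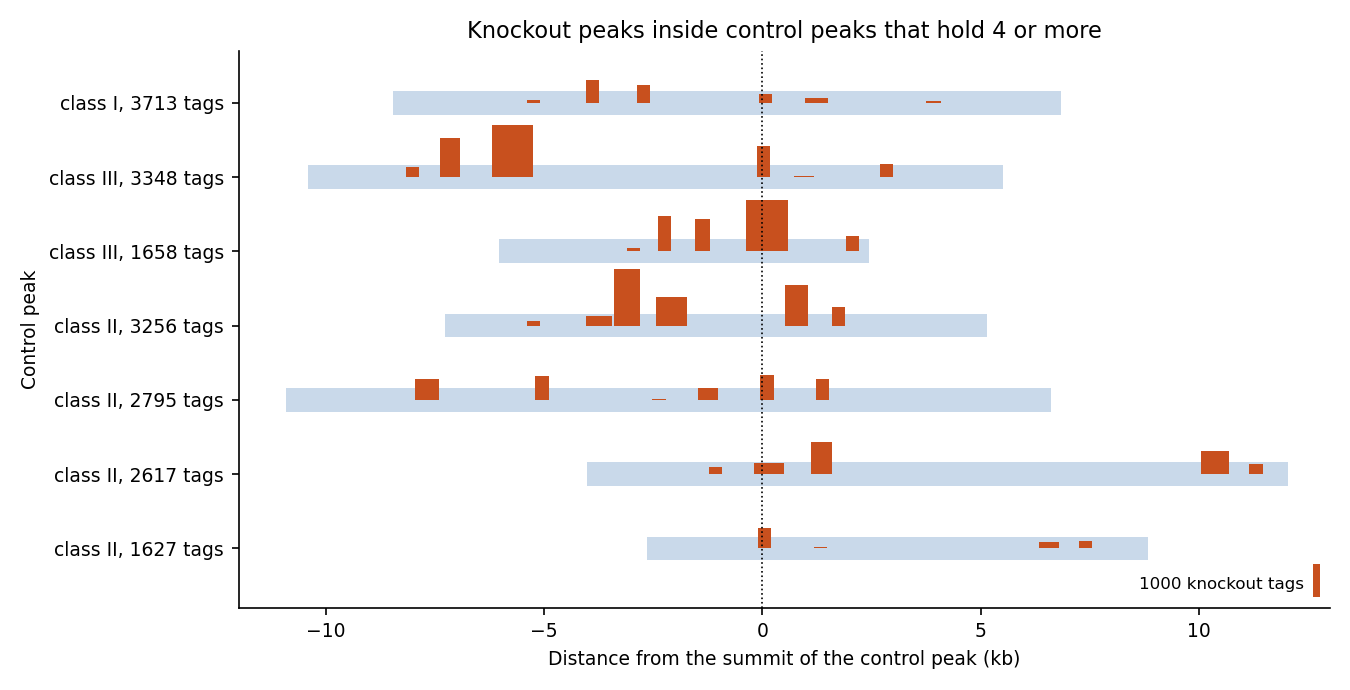
Position of knockout peaks (orange, height by knockout tags, width to scale) inside the 7 MHC control peaks (blue bars, width to scale) that hold 4 or more of them, in kb from the control summit. Knockout peaks are spread over the domains, and in the fourth row from the top none lies within 500 bp of the control summit.

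Over all 133 knockout peaks inside MHC domains, the distance between the knockout and the control summit had a median of 860 bp (quartiles 269 and 2368 bp), with 568 bp over the whole lists. It was 695.5 bp in class I, 757 bp in class III and 1344 bp in class II. At most 500 bp was found for 52 of the 133 (39.1%) and for 46.0% over the whole lists. The wider domains of the region leave room for longer distances, and their part in this was not tested.

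Where 1 control peak met 1 knockout peak, tags could be compared in pairs, and the MHC region had 45 such pairs out of 7552. Knockout over control tags were taken as log2 with a pseudocount of 1 and centred on the median of all 7552 pairs, since depth and enrichment differ between the libraries. The median of the MHC pairs was -0.24 (quartiles -1.05 and 0.74). A difference of 4-fold or more was seen upward in 5 of 45 pairs (11.1%), with 13.4% of all pairs, and downward in 6 of 45 (13.3%), with 14.9% of all pairs. These shares are near the background. By class the medians were 0.09 for 26 pairs in class I, -0.24 for 11 in class III and -1.59 for 8 in class II. In class III 3 of 11 pairs were higher by 4-fold or more and 0 lower. In class II 0 were higher and 3 of 8 lower, and in class I 2 of 26 higher and 3 lower. Pairs leave out every control peak with several knockout peaks, among them the 3 leading domains of class II. Over all class II peaks, knockout tags stood to control tags as 0.924, beside 0.772 over the whole lists.

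The 3 highest ratios were all in class III. The highest, at the control peak from 31429783 to 31431814, set 1071 knockout against 102 control tags, for a centred log2 value of 3.84 (3.55 to 4.16). The second, from 32152102 to 32153509, set 294 against 40 tags, for 3.30 (2.85 to 3.85). Its control peak was weakly called, with a false discovery rate (FDR) of 25.49%, above the 1% filter given further on. The third was the domain around the strongest knockout peak, with 5280 against 927 tags and a ratio of 2.96 (2.86 to 3.07). The lowest ratio was in class I, from 28804247 to 28808272, with 49 knockout and 839 control tags, for -3.61 (-4.09 to -3.23). It was followed in class II by the domain from 32818317 to 32824440, with 102 against 1317 tags and -3.22 (-3.54 to -2.94). The third lowest, from 33127444 to 33130777, also in class II, had 22 against 230 tags and -2.87 (-3.63 to -2.30). Per kb of peak width the second of the highest was 2.04 and the third 1.58, the latter below 4-fold. The lowest on that scale were -3.65 for the pair from 33127444 and -3.42 for the one from 28804247. Next came -3.28 for a class II pair from 33043049 to 33044661, with 13 knockout and 54 control tags. Both peaks of that pair were weakly called, with an FDR of 38.02% in the control and 4.76% in the knockout. The pair from 32818317 followed with -2.84.

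**Figure D5:**
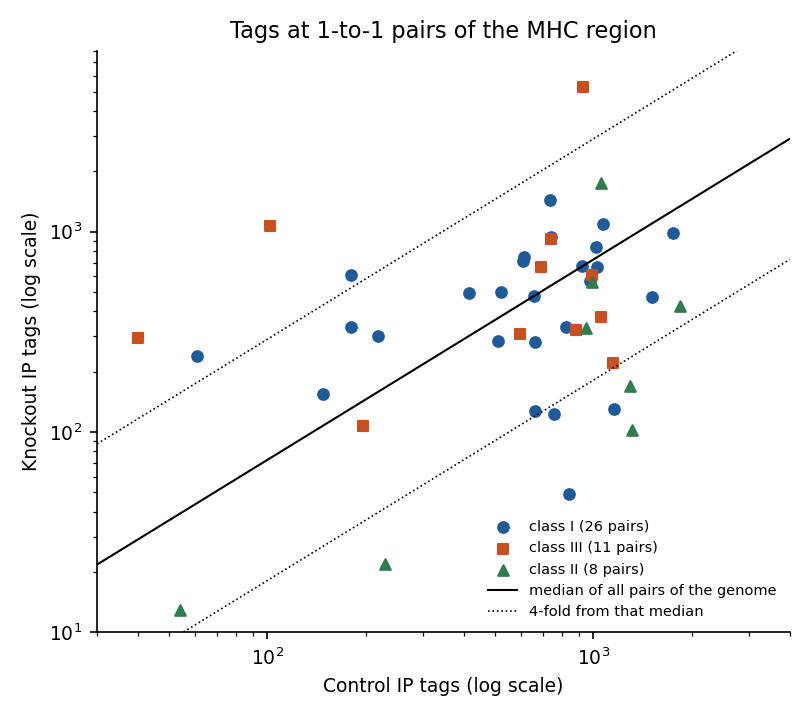
Knockout against control IP tags at the 45 MHC pairs on log axes, by class, with a solid line at the median ratio of all 7552 pairs and dotted lines 4-fold from it. Of the pairs, 5 lie above the upper and 6 below the lower dotted line, and no class II pair lies above the upper one.

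Knockout peaks outside control peaks numbered 42 in the region, with 28 in class I, 8 in class III and 6 in class II. Their tags ran from 20 to 2256 with a median of 318.5, and those inside control peaks from 13 to 5280 with a median of 479. Over the whole list the medians were 336 and 482. The strongest outside peak, from 33208478 to 33208943 in class II, had 2256 tags (2164 to 2351) in 466 bp and lay 6316 bp from the nearest control peak, and it was also the strongest knockout peak of class II. In class I the strongest had 1145 tags (28821609 to 28822065) and the next 910 (30373189 to 30373489), the latter 57612 bp from a control peak. In class III the leading ones had 479 tags (31640394 to 31640693) and 367 tags (31555431 to 31555730), and all 8 were exactly 300 bp wide. The second in class II had 506 tags (32706359 to 32706808) and lay in the low stretch. The nearest control peak was a median of 4734.5 bp away, and 26 of the 42 had one within 10 kb.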

How the data were processed

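The 4 libraries, an H3K4me3 IP and an input for each genotype, were grouped by title. Per the labels' protocols, chromatin was cut with micrococcal nuclease. Alignment and peak tools, per the submitters' processing notes, were Bowtie2 (version 2.2.4) and MACS (version 1.4.3), on hg19. Per the file headers, the authors called peaks of each IP against its own input at a p cutoff of 0.0001, with a fragment length of 300 bp and the larger library scaled to the smaller. In the knockout list the header calls the library K6, a name absent from the labels, and only the name of the file ties the list to the knockout. The line is MDA-MB-231 by the series title, although the cell line field of 3 libraries ends in another number.

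The deposited tag counts are whole IP tags per peak, not normalized. The deposited score is the MACS p-value on a negative log10 scale, multiplied by 10, in a column whose header was lost and which was identified by place and values. The deposited fold enrichment is a ratio to local background, and the deposited FDR is in percent. Scores, fold and FDR served only as filters. IP depth was 27748061 control and 13391724 knockout tags.

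Peaks were joined by position (at least 1 bp shared) with pandas 2.3.3 and numpy 2.4.6 under Python 3.11.15 (intervals by scipy 1.17.1, plots by matplotlib 3.10.9), checked against bedtools 2.31.1 and tested on simulated peaks. A peak took the class that held its summit. Shares have exact Clopper-Pearson 95% intervals, tags exact Poisson ones, and ratios exact binomial ones. For each class the named peaks were the 3 strongest and the widest control peaks, the 2 strongest without a knockout peak, the 3 strongest knockout peaks and the 2 strongest outside control peaks. Over the region they were the 3 highest and 3 lowest ratios with at least 50 tags, the 3 longest stretches without a control peak and the control peaks with the most knockout peaks. Other peaks named, the tag classes, the windows, the class II stretches and the promoter sequences were chosen after the values were seen. The region and its gene lists were chosen with earlier results of these data known. Alternatives were stricter thresholds, other overlaps, class limits, scalings and pseudocounts. Gene annotation in hg19 was not used here.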

Additional observations from a re-analysis of the deposited data

How the results depend on the processing

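Of 61 recomputed values of the region 50 were kept and 11 moved, where a count or length counted as kept up to a change of 1.5 times and any other value inside its interval. Some of the kept values could not move. Choosing peaks by summit changed nothing, because no peak crossed an end of the region. Pseudocounts of 0.5 and 5 left the median log2 ratio of the MHC pairs at -0.24. The overlap share of MHC control peaks, reported as 44.7%, was 55.7% at a MACS p of 1e-10 or less (whole list 37.7%), 61.7% at an FDR of 1% or less (46.1%) and 59.5% with lists of equal length (41.6%). It was 30.6% with only knockout peaks wider than 300 bp (17.2%), 22.9% when the control summit had to lie in a knockout peak (12.9%) and 0% when 50% of the control peak had to be covered (0.0600%). With only knockout peaks wider than 300 bp there were 90 of them, with a median width of 489.5 bp, and 83.3% met a control peak (70.6%). At an FDR of 1% or less control peaks per Mb were 23.6 in class I and 14.8 in class II. The cause of these shifts was not tested. The median log2 ratio of the MHC pairs was -0.24, with an interval from the ordered values of -0.77 to 0.48. After division by library totals without centring it was 0.35, where the median of all pairs was 0.60. That division shifts every pair equally, so it cannot change where the MHC pairs stand against the rest. With all knockout peaks of a domain summed, over 76 MHC control peaks and centred on all such peaks, the median was 0.10. The 6 named ratios kept their sign in all 24 recomputations, and 11 left their counting interval. The kept sign is a weak check, because these ratios were picked as the most extreme. No paired analysis was possible because each genotype has 1 library. Depth limits the weak peaks: at the lower knockout depth, a control peak under 100 tags without a knockout peak does not show that the mark was absent.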
